A study of Homo sapiens with 16 samples.

Results

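Levels of 9 genes of quinone metabolism and NADPH supply, out of the 25221 genes in the deposited count table, were followed in human myeloid leukemia cells given the small molecule Ro 08-2750 (Ro). The genes were OSGIN1, NQO1, PIR, ME1, PGD, IDH1, TALDO1, TKT and AKR1B1, each matched to a single entry of the table by its symbol. They were chosen by their place among known or proposed targets of the transcription factor NRF2 and by their counts and changes with Ro in these same libraries, which were already in view, with no cutoff. The changes with Ro are therefore given as a description without a test, and a test is given only for a different contrast, the level of each gene in K562 against MOLM13 with DMSO. The DMSO levels were in view as well, so the p-values of that contrast are not independent of the choice.

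RNA came from MOLM13, a cell line of human acute myeloid leukemia that carries MLL-AF9, and from K562, a human line of chronic myeloid leukemia in blast crisis that carries BCR-ABL and has erythroid features. Both lines were grown in the same medium and received either DMSO alone or 20 μM Ro in DMSO for 4 h. Each of the 4 groups has 4 libraries, labelled as pairs 1 to 4 of each line, which makes 16 libraries. Ro was selected in the study as an inhibitor of RNA binding by the Musashi protein MSI2, and the comparison asks which transcripts move within hours of treatment. Each leukemia is represented by 1 cell line, and nothing in the labels says whether the libraries of a group came from separate cultures, so a p-value measures only the spread between these libraries.

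NRF2, encoded by NFE2L2, is a transcription factor that the adaptor KEAP1 holds at a low level by steady degradation. Electrophiles and oxidants modify KEAP1, NRF2 then accumulates, pairs with a small MAF protein and binds the antioxidant response element of its target genes. A part of these targets detoxifies quinones and aldehydes, and another part supplies the NADPH that such reductases, thioredoxin reductase and glutathione reductase consume. NADPH in the cytosol comes from the oxidative branch of the pentose phosphate pathway, from malic enzyme and from isocitrate dehydrogenase, while transaldolase and transketolase recycle sugar phosphates in the non-oxidative branch.

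Library totals ranged from 8611944 to 39978791 counts in MOLM13 with DMSO and from 14412389 to 21413885 with Ro. In K562 they ranged from 3143129 to 43571060 with DMSO and from 13950949 to 25353764 with Ro, and those of pairs 2 and 4 with DMSO held the fewest, 3143129 and 4383241 counts. Levels are given as CPM, that is, counts scaled to a fixed effective library total, and 3 counts correspond to between 0.067 and 0.872 CPM depending on the library, a limit that covers counting error only. Libraries were made from 3′ ends of mRNA, where a transcript gives reads at its end and not along its length. The line labels were checked against markers. FLT3 had a mean of 159.6 CPM in MOLM13 with DMSO and 3.10 in K562, whereas GATA1 had 0.047 and 66.0 CPM. A list of 14 myeloid markers summed to between 875.4 and 1220 CPM in MOLM13 with DMSO and to between 788.8 and 1068 with Ro, against between 151.6 and 233.6 CPM with DMSO and between 166.9 and 299.3 with Ro in K562, and HOXA10 and FCGR1A were under 3 counts in every library. A list of 14 erythroid markers summed to between 2313 and 3672 CPM in K562 with DMSO and to between 1798 and 3296 with Ro, with HBE1 under 3 counts throughout. Whether the values of HOXA10, FCGR1A and HBE1 reflect the cells or the counting was not tested. The erythroid sum was between 15.9 and 20.4 CPM in MOLM13 with DMSO and between 17.8 and 19.6 with Ro. These are bulk libraries, in which fewer cells that express a gene and less of its RNA per cell cannot be told apart.

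The motif TGACNNNGC, the core of the antioxidant response element, was looked for on both strands of the RefSeq promoters of GRCh38.p14, each 300 bases from 250 before to 50 after an annotated start. All 9 genes had a promoter in that table, and 4 of them held the motif, against 4384 of 27305 genes (16.1%) and 4687 of 35116 promoters (13.3%). The windows with a match are shown because they place these letters near the starts of the malic enzyme, pirin, phosphogluconate dehydrogenase and isocitrate dehydrogenase genes. They are written 5′ to 3′ on the gene's strand with 10 bases on each side, and capitals mark the 9 matching bases, which read GCNNNGTCA where the match lies on the other strand.
ME1 upstream: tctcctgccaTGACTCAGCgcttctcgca
ME1 downstream: gctgcagtcaGCACCGTCAccccagcagc
PIR: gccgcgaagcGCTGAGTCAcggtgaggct
PGD: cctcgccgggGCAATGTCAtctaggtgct
IDH1: cccctctcgcTGACTCCGCccatcccacg

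The first ME1 window is chr6:83431170-83431198 on the minus strand, with the motif starting 137 bases before the start site, and the other is chr6:83431022-83431050, with a match on the opposite strand 12 bases after it. The PIR window is chrX:15493289-15493317 on the minus strand, with a match on the opposite strand 27 bases after the start. The PGD window is chr1:10398853-10398881 on the plus strand, with a match on the opposite strand 201 bases before the start. The IDH1 window is chr2:208255196-208255224 on the minus strand, 143 bases before the start of 1 of its 2 promoters in the table. The letters were not found in these windows of OSGIN1, NQO1, TALDO1, TKT or AKR1B1. A match is a description of the letters and not a binding site, and its absence refers to this window alone.

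Among the quinone and redox genes, OSGIN1, whose product is an oxidative stress-induced inhibitor of cell growth, had the largest mean change of the 9 genes in both lines. OSGIN1 (Entrez 29948, chr16:83953240-83966332) was at 0.578, 0.842, 0.645 and 0.201 CPM in MOLM13 pairs 1 to 4 with DMSO and at 3.23, 1.96, 2.38 and 1.70 CPM with Ro. All 4 Ro libraries lay above all 4 DMSO libraries. These are few reads, 4, 19, 13 and 7 with DMSO and 37, 29, 52 and 34 with Ro. The log2 change by pair, computed with a prior count of 2, averaged 1.94 ± 0.64 (SD, n = 4 pairs), or 3.82-fold. In K562 the OSGIN1 level was 7.31, 4.07, 2.04 and 7.88 CPM with DMSO and 11.8, 21.3, 13.1 and 19.6 CPM with Ro. Here too the groups did not overlap, although the DMSO level of pair 2 rests on 14 reads. The K562 changes in OSGIN1 were 0.68, 2.36, 2.63 and 1.31, with a mean of 1.74 ± 0.91, or 3.35-fold. OSGIN1 overlaps NECAB2 in the annotation, and NECAB2 had at most 13 counts in any library.

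NQO1, the NAD(P)H quinone reductase that converts quinones directly to hydroquinones, was higher with Ro in all 4 pairs of each line. NQO1 (Entrez 1728, chr16:69709401-69726560) was at 17.0, 19.3, 38.9 and 11.2 CPM in MOLM13 with DMSO and at 58.9, 35.4, 70.0 and 23.2 CPM with Ro. The groups overlapped, because pair 3 was high and pair 4 low with either treatment, while each pair moved up. The MOLM13 changes were 1.78, 0.87, 0.85 and 1.04 (mean 1.14 ± 0.44, 2.20-fold). In K562 NQO1 was at 65.0, 50.3, 41.8 and 75.5 CPM with DMSO and at 79.2, 69.4, 58.7 and 84.4 CPM with Ro. The K562 groups overlapped as well, and the changes were 0.28, 0.46, 0.49 and 0.16 (mean 0.35 ± 0.16, 1.27-fold). The annotated antisense gene NQO1-AS1 overlaps NQO1, and the strand setting of the counting is not given in the sources used here, so reads of the pair cannot be told apart.

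PIR encodes pirin, an iron-binding nuclear protein of the cupin family, and was higher with Ro in all 4 pairs of MOLM13 and in 2 of 4 pairs of K562. In MOLM13, PIR (Entrez 8544, chrX:15384799-15493333) was at 3.47, 5.09, 4.51 and 4.21 CPM with DMSO and at 16.5, 6.49, 9.03 and 6.41 CPM with Ro. The groups did not overlap, and pair 1 stood highest with Ro and lowest with DMSO. The changes were 2.22, 0.34, 0.98 and 0.59 (mean 1.03 ± 0.83, 2.05-fold), and the mean was 0.64 without pair 1. In K562, PIR was at 10.8, 12.2, 9.09 and 15.1 CPM with DMSO and at 9.86, 11.2, 12.6 and 20.7 CPM with Ro. Pairs 1 and 2 were slightly lower and pairs 3 and 4 higher with Ro, and the mean change was 0.17 ± 0.34. Whether the change with Ro differs between the lines was not tested for these genes. PIR overlaps the read-through annotation PIR-FIGF.

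**Figure D1:**
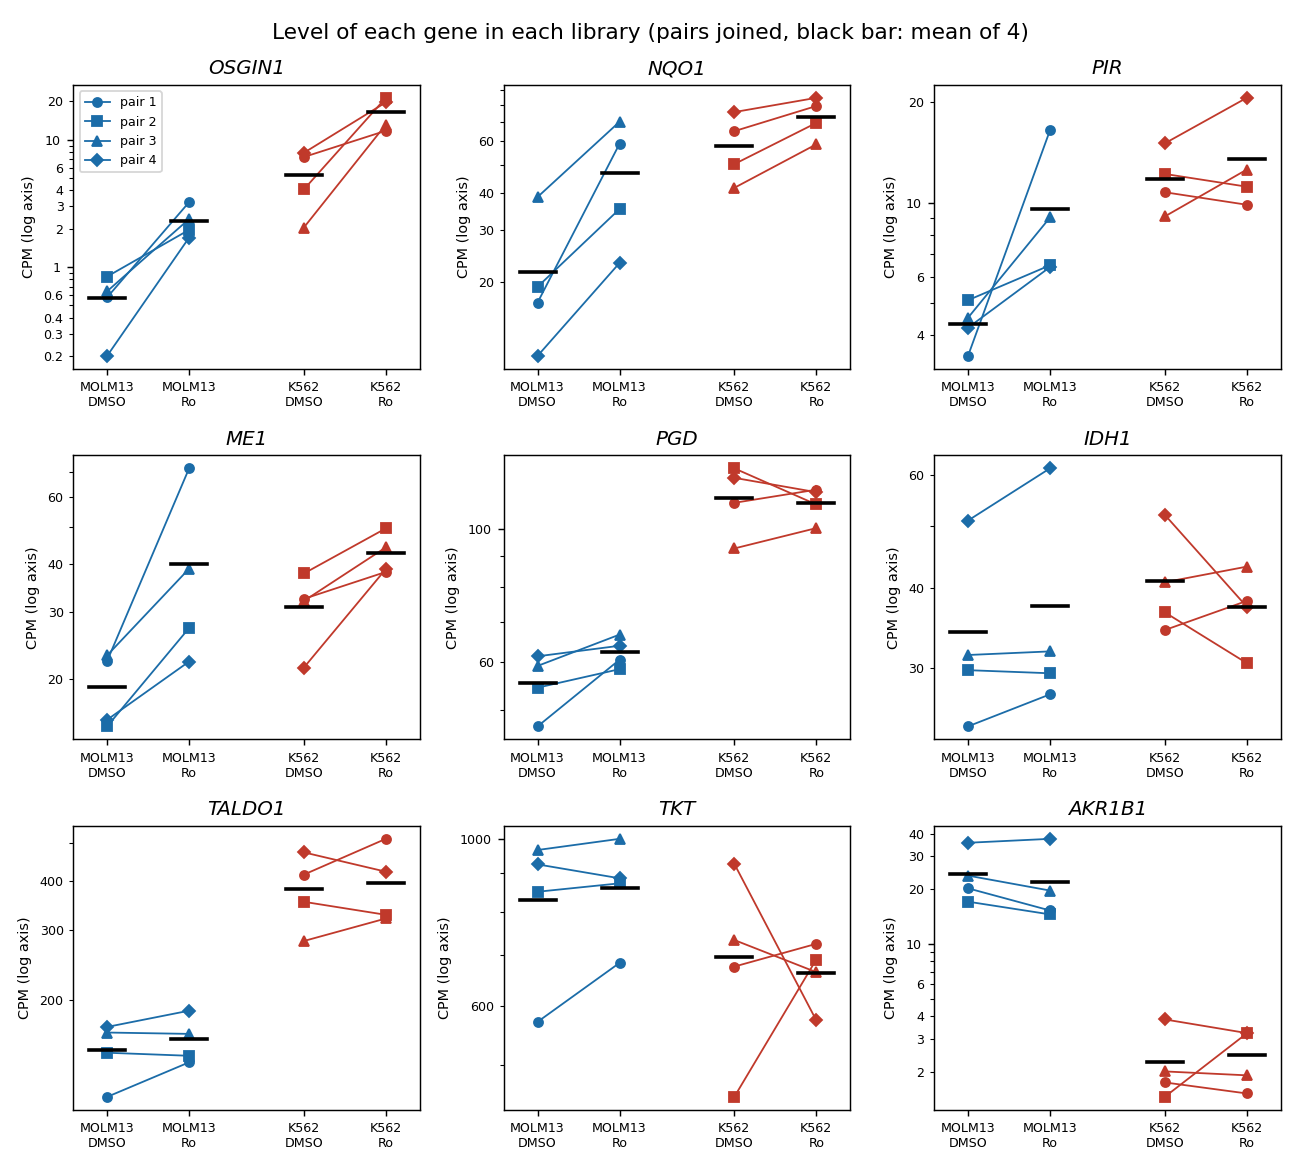
Level of each of the 9 genes in each of the 16 libraries, as CPM on a log axis, with the DMSO and Ro libraries of a pair joined and a black bar at the mean of 4. OSGIN1 in both lines, PIR in MOLM13 and ME1 in K562 show Ro libraries that all lie above the DMSO libraries, and AKR1B1 is low in K562 (1.45 to 3.85 CPM with DMSO).

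Among the NADPH-producing enzymes, ME1, the cytosolic malic enzyme that makes NADPH from malate, was higher with Ro in every pair of both lines. ME1 (Entrez 4199, chr6:83210402-83431051) was at 22.2, 15.0, 23.0 and 15.6 CPM in MOLM13 with DMSO and at 71.4, 27.2, 38.9 and 22.2 CPM with Ro. Only the Ro library of pair 4 fell inside the range of the DMSO libraries, and pair 1 was far above the rest. The changes were 1.68, 0.85, 0.75 and 0.51 (mean 0.95 ± 0.51, 1.93-fold). In K562, ME1 was at 32.4, 37.8, 32.0 and 21.4 CPM with DMSO and at 38.1, 49.7, 44.3 and 38.8 CPM with Ro. The lowest Ro library was just above the highest DMSO library, and the change averaged 0.49 ± 0.26 (1.40-fold).

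PGD, phosphogluconate dehydrogenase, makes NADPH in the oxidative branch of the pentose phosphate pathway. PGD (Entrez 5226, chr1:10399064-10420511) was at 46.9, 54.4, 59.2 and 61.4 CPM in MOLM13 with DMSO and at 60.6, 58.4, 66.7 and 63.9 CPM with Ro. Each pair was higher with Ro, by 0.37, 0.10, 0.17 and 0.06 on the log2 scale, but the groups overlapped and the mean was 0.18 ± 0.14 (1.13-fold). In K562 the level was 110.5, 126.1, 92.8 and 121.6 CPM with DMSO and 116.2, 109.8, 100.3 and 115.1 CPM with Ro. Pairs 1 and 3 were a little higher and pairs 2 and 4 lower, which gave a mean change of -0.023 ± 0.14.

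IDH1 is the cytosolic NADP-dependent isocitrate dehydrogenase, a further source of NADPH. IDH1 (Entrez 3417, chr2:208236227-208255071) was at 24.3, 29.7, 31.4 and 51.0 CPM in MOLM13 with DMSO and at 27.2, 29.4, 31.8 and 61.5 CPM with Ro. Pair 4 was the highest of the MOLM13 pairs with either treatment, and the mean change was 0.11 ± 0.13. In K562 the level was 34.3, 36.6, 40.8 and 52.0 CPM with DMSO and 38.1, 30.5, 43.2 and 37.4 CPM with Ro. The mean change there was -0.13 ± 0.29, and it was 0.12 over pairs 1 and 3, which exclude the small DMSO libraries.

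The enzymes of the non-oxidative pentose phosphate branch, TALDO1 (transaldolase) and TKT (transketolase), had mean changes close to 0 in both lines. TALDO1 (Entrez 6888, chr11:747464-765012) was at 113.4, 146.8, 165.2 and 170.7 CPM in MOLM13 with DMSO and at 138.8, 144.2, 163.9 and 187.7 CPM with Ro. In K562 it was at 415.9, 354.8, 282.1 and 473.7 CPM with DMSO and at 512.7, 328.8, 321.8 and 423.1 CPM with Ro. The groups overlapped in both lines, 2 of 4 pairs were higher in each, and the mean changes were 0.10 ± 0.15 and 0.055 ± 0.23, the latter turning to -0.005 when libraries were scaled by their total counts. TKT (Entrez 7086, chr3:53224712-53256022) was at 571.2, 849.9, 965.5 and 924.0 CPM in MOLM13 with DMSO and at 683.9, 872.0, 999.0 and 885.6 CPM with Ro. In K562 it was at 676.2, 454.2, 733.4 and 925.6 CPM with DMSO and at 724.9, 691.0, 664.8 and 573.9 CPM with Ro. Pair 1 was the lowest in MOLM13 with either treatment, and in K562 the DMSO libraries of pairs 2 and 4, the smallest in depth, were the lowest and the highest. The mean changes were 0.071 ± 0.14 in MOLM13 and -0.031 ± 0.54 in K562.

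AKR1B1 is aldose reductase, which spends NADPH to reduce glucose and reactive aldehydes, and it was the only one of the 9 genes with a lower mean level in Ro in MOLM13. AKR1B1 (Entrez 231, chr7:134442350-134459239) was at 20.1, 17.0, 23.6 and 35.6 CPM with DMSO and at 15.2, 14.5, 19.5 and 37.4 CPM with Ro in that line. Pairs 1 to 3 were lower and pair 4 was slightly higher, with a mean change of -0.21 ± 0.20. In K562 the level was 1.74, 1.45, 2.00 and 3.85 CPM with DMSO and 1.52, 3.23, 1.91 and 3.25 CPM with Ro. Pair 2, whose DMSO library had 5 AKR1B1 reads, changed by 1.10, and the others by -0.19, -0.067 and -0.24.

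**Figure D2:**
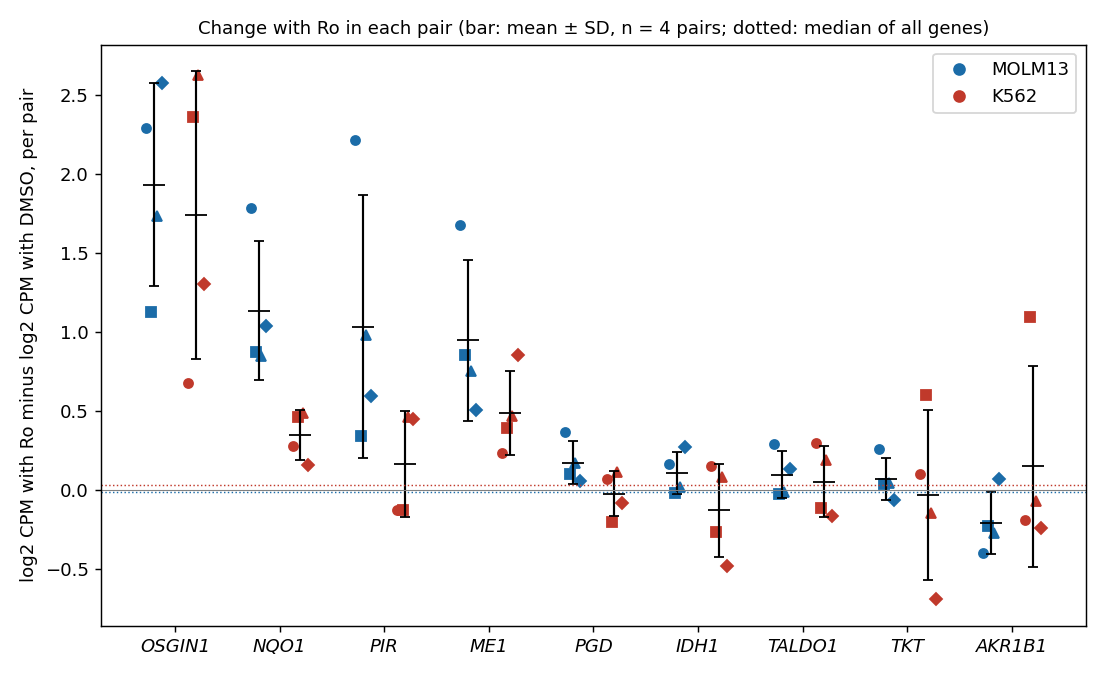
Change with Ro in each pair for the 9 genes, as log2 CPM with Ro minus log2 CPM with DMSO, with MOLM13 in blue, K562 in red, a bar at the mean ± SD over 4 pairs and dotted lines at the median of all genes. OSGIN1, NQO1 and ME1 lie above 0 in every pair of both lines, and the means of the other genes in K562 lie between -0.13 and 0.17.

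In MOLM13, 5 of the 9 genes (OSGIN1, NQO1, PIR, ME1 and PGD) were higher with Ro in all 4 pairs, a direction that 10.2% of the 15031 genes tested showed. In K562 this held for 3 of 9 (OSGIN1, NQO1 and ME1), beside 6.84% of 15227 genes. Neither line had a member that was lower in every pair, which 14.9% of all genes were in MOLM13 and 4.65% in K562. Ro libraries lay wholly above DMSO libraries for 2 members in MOLM13 (OSGIN1 and PIR; 0.665% of all genes) and for 2 in K562 (OSGIN1 and ME1; 0.584%). The median change of the 9 genes was 0.18 in MOLM13, where that of all genes was -0.014, and 0.15 in K562, where it was 0.035. Since these changes were in view when the genes were picked, the counts describe the choice.

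MOLM13 pair 1 had the largest change of the 4 pairs for NQO1, PIR, ME1, PGD, TALDO1 and TKT, upward in each. That pair also had the largest change for AKR1B1, which was downward (-0.4). Its DMSO library was the smallest of that line, at 8611944 counts, and a single gene that the table lists without a symbol held 22.3% of the counts of that library and 24.3% of its Ro partner, against 4.11% to 15.3% in the other MOLM13 libraries. The part of these differences in the size of the changes was not tested. Without pair 1, the mean changes in MOLM13 were 1.81 for OSGIN1, 0.92 for NQO1 and 0.70 for ME1.

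Each line was fitted over all its genes with edgeR's quasi-likelihood test, first without the pair numbers. Between Ro and DMSO, 0 of 15031 genes in MOLM13 (0.0%) and 0 of 15227 in K562 (0.0%) passed a Benjamini-Hochberg adjusted p of 0.05. Unadjusted p-values under 0.05 were found for 126 genes with a higher and 49 with a lower level in MOLM13, and for 52 and 135 in K562, and DESeq2 called 1 gene in MOLM13 and 0 in K562. With the pair as a replicate block, edgeR called 317 genes (2.11%) in MOLM13. With the block in K562 it called 0 genes (0.0%; unadjusted p under 0.05 for 129 higher and 193 lower), while DESeq2 with the block called 2. Over K562 pairs 1 and 3 alone, the blocked edgeR fit called 368 of 15800 genes (2.33%). That fit has 2 libraries per treatment, which leaves very little to estimate the spread from, and its filter asked for fewer libraries. Its count therefore cannot be set beside those of the other fits. The 9 genes were chosen with these Ro changes known, and no call on any of them is drawn from these fits.

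The level of the 9 genes with DMSO was then compared between the lines. These levels were in view when the genes were picked, so the p-values below are not independent of that choice. In K562, 6 of the 9 were higher than in MOLM13 (20.3% of the 15268 genes tested were), 1 was lower (21.1%) and 2 were not called. This edgeR fit called 6313 genes, 41.3% of those tested, at a Benjamini-Hochberg adjusted p under 0.05, so differences between the lines are common among all genes. OSGIN1 was 9.65-fold higher in K562 (log2 fold change 3.27, SE 0.51, edgeR Benjamini-Hochberg adjusted p = 0.00015), with a mean of 5.33 ± 2.76 CPM (SD, n = 4) against 0.566 ± 0.268. NQO1 was 2.68-fold higher (1.42, SE 0.34, edgeR adjusted p = 0.00405), at 58.1 ± 15.1 against 21.6 ± 12.0 CPM. PIR was 2.65-fold higher (1.41, SE 0.24, edgeR adjusted p = 0.000367), at 11.8 ± 2.54 against 4.32 ± 0.678 CPM. In none of these 3 genes did the DMSO libraries of the lines overlap. The share of all genes whose DMSO libraries are separate between the lines was not computed, here or for the genes below.

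The pentose phosphate enzymes did not all follow the same order. TALDO1 was 2.55-fold higher in K562 (log2 fold change 1.35, SE 0.23, edgeR adjusted p = 0.000377), at 381.6 ± 82.2 against 149.0 ± 25.9 CPM. PGD was 2.02-fold higher (1.01, SE 0.20, edgeR adjusted p = 0.000976), at 112.7 ± 14.8 against 55.5 ± 6.39 CPM. TKT, in contrast, was at 697.3 ± 194.1 CPM in K562 and 827.7 ± 177.5 in MOLM13, with a difference of -0.25 (SE 0.26, edgeR adjusted p = 0.473) that changed sign to 0.17 when libraries were scaled by total counts. The libraries of the lines were separate for TALDO1 and PGD and overlapped for TKT.

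ME1 was 1.63-fold higher in K562 (log2 fold change 0.70, SE 0.24, edgeR adjusted p = 0.0303), at 30.9 ± 6.87 against 19.0 ± 4.26 CPM. Its libraries overlapped, and the call was lost on leaving out MOLM13 DMSO library 2 or 4 or K562 DMSO library 1, 2 or 3, with edgeR adjusted p between 0.0565 and 0.106. IDH1 was at 41.0 ± 7.86 CPM in K562 and 34.1 ± 11.7 in MOLM13 (0.25, SE 0.25, edgeR adjusted p = 0.464), with overlapping libraries. AKR1B1 went the opposite way, 11.1-fold lower in K562 (log2 fold change -3.47, SE 0.35, edgeR adjusted p = 2.69e-06), at 2.26 ± 1.08 against 24.1 ± 8.17 CPM. No K562 library reached the lowest MOLM13 library in AKR1B1.

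**Figure D3:**
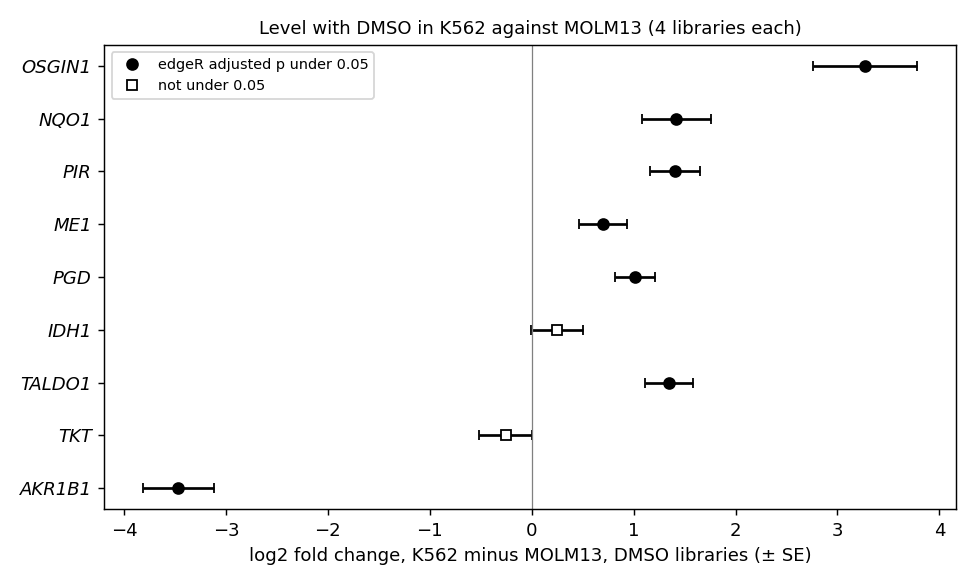
Difference in level between K562 and MOLM13 with DMSO for the 9 genes, as edgeR log2 fold change ± SE (4 libraries per line), with filled circles where the adjusted p is under 0.05. OSGIN1 (3.27) and AKR1B1 (-3.47) lie farthest from 0 on opposite sides, and IDH1 and TKT are the open squares.

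The mean gap between the lines was narrower with Ro than with DMSO for 8 of the 9 genes, though by little for TALDO1 and OSGIN1. The share of all genes with a narrower gap was not computed, and the members were picked with the Ro changes known. The mean log2 difference of K562 minus MOLM13 was 1.54 with DMSO and 0.75 with Ro for NQO1, 1.41 and 0.55 for PIR, and 0.70 and 0.24 for ME1. For OSGIN1 it was 2.96 and 2.77, for PGD 1.02 and 0.82, for IDH1 0.30 and 0.065, for TALDO1 1.35 and 1.30, and for AKR1B1 -3.39 and -3.04. For TKT it was wider with Ro, at -0.26 with DMSO and -0.37 with Ro. These values restate the changes by pair and were not tested. With Ro, MOLM13 reached a mean of 46.9 ± 21.4 CPM of NQO1 and 39.9 ± 22.2 of ME1, against 72.9 ± 11.3 and 42.7 ± 5.37 CPM in K562. The OSGIN1 mean with Ro was 2.32 ± 0.67 CPM in MOLM13, below the 5.33 ± 2.76 CPM of K562 with DMSO.

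In order of level with DMSO, TKT was highest in both lines, followed by TALDO1 and PGD, and OSGIN1 was lowest in MOLM13 while AKR1B1 was lowest in K562. These are read counts at 3′ ends, not divided by length, and genes can differ in how well their ends are captured. In MOLM13 the DMSO ranges of TKT (571.2 to 965.5 CPM), TALDO1 (113.4 to 170.7) and PGD (46.9 to 61.4) did not overlap, and IDH1 (24.3 to 51.0), AKR1B1 (17.0 to 35.6), NQO1 (11.2 to 38.9) and ME1 (15.0 to 23.0) ran into each other. The top of the IDH1 range also lay above the bottom of the PGD range. PIR (3.47 to 5.09) and OSGIN1 (0.201 to 0.842) were each separate below all of these. In K562 TALDO1 (282.1 to 473.7 CPM) overlapped with TKT (454.2 to 925.6), and PGD (92.8 to 126.1) and PIR (9.09 to 15.1) were separate from their neighbours. There, NQO1 (41.8 to 75.5), IDH1 (34.3 to 52.0) and ME1 (21.4 to 37.8) formed a chain of overlapping ranges, and so did OSGIN1 (2.04 to 7.88) and AKR1B1 (1.45 to 3.85).

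Other genes of the same pathways were taken from lists of 97 further genes, and of these 79 could be tested in MOLM13 and 80 in K562. Without the block, edgeR called 0 in either line (unadjusted p under 0.05 for 5 higher and 0 lower in MOLM13, and for 4 higher and 1 lower in K562), and DESeq2 called 0 in both lines. With the block, edgeR called 9 of the 79 in MOLM13, 8 higher and 1 lower. Of all 15031 genes it called 317 (2.11%), 141 higher and 176 lower. In K562 it called 0 with the block, where the unadjusted p was under 0.05 for 5 higher and 1 lower and DESeq2 with the block called 1. The lists were drawn up with earlier results of these data known, so these calls and p-values are not independent of that choice. Each adjusted p for a change with Ro in the next paragraphs is from the blocked edgeR fit of MOLM13, with Benjamini-Hochberg adjustment over all genes. Those for a difference between the lines with DMSO are from the edgeR fit between the lines without a block. In the blocked K562 fit, none of the genes named had an adjusted p under 0.947.

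Of the other pentose phosphate genes, PRPS1 alone was called. Of the 11 tested, 5 were lower in all 4 MOLM13 pairs and 1 was higher, beside 14.9% and 10.2% of all genes, and the median changes were -0.20 in MOLM13 and -0.016 in K562. PRPS1, which makes the phosphoribosyl pyrophosphate of nucleotide synthesis, fell by 0.34 ± 0.14 on the log2 scale in MOLM13 (edgeR adjusted p = 0.0423). RPIA, ribose phosphate isomerase, changed by -0.30 ± 0.39 and PGLS, the lactonase that acts before PGD, by -0.21 ± 0.14 without passing the test (edgeR adjusted p = 0.198 and 0.200). The highest changes among genes with a mean of at least 5 CPM were those of DERA (-0.026 ± 0.14) and PRPS2 (-0.11 ± 0.12) in MOLM13. In K562 the highest were DERA (0.11 ± 0.13), higher in all 4 pairs, and PRPS1 (0.057 ± 0.22). TKTL1, a relative of TKT, stayed at 1.45 CPM or less on average in all groups.

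None of the other NADPH and NADP enzymes passed the test, with or without the block, out of 15 tested in MOLM13 and 16 in K562. Their median change was -0.14 in MOLM13, with 6 lower and 1 higher in all 4 pairs (14.9% and 10.2% of all genes), and 0.016 in K562, with 0 and 2 (4.65% and 6.84%). IDH2, the mitochondrial counterpart of IDH1, changed by -0.16 ± 0.093 in MOLM13 and -0.041 ± 0.37 in K562. The mitochondrial malic enzymes ME2 and ME3 changed by -0.035 ± 0.018 and -0.16 ± 0.28 in MOLM13 and by 0.066 ± 0.16 and -0.22 ± 0.57 in K562. The lowest changes in MOLM13 belonged to FASN, fatty acid synthase and a large consumer of NADPH (-0.28 ± 0.19), and to SHMT1 of folate metabolism (-0.26 ± 0.087). The highest were MTHFD2L at 0.18 ± 0.13 and MTHFD2 at 0.14 ± 0.29, both folate dehydrogenases. In K562, NADK, which makes NADP from NAD, had a change of 0.13 ± 0.084 and was higher in all 4 pairs, and MTHFD1 had one of 0.15 ± 0.52, while SHMT2 was at -0.23 ± 0.31 and FASN at -0.19 ± 0.55. Between the lines with DMSO, ME2 was lower in K562 (-1.54, SE 0.209, edgeR adjusted p = 4.57e-05), opposite to ME1, and IDH2 did not pass (-0.61, SE 0.319, edgeR adjusted p = 0.147).

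Of the 27 other quinone, aldehyde and ketone reductases, 17 were tested in MOLM13 and 16 in K562, and none passed either. Their median changes were -0.019 in MOLM13 and 0.042 in K562. CBR1, CBR3, AKR1C1 and AKR1C3 were at 0.0 CPM with either treatment in both lines, so nothing can be said of their change. Whether these values reflect the cells or the counting was not tested. NQO2, the relative of NQO1 that uses dihydronicotinamide riboside, was higher in all 4 MOLM13 pairs by 0.31 ± 0.082, just short of the test (edgeR adjusted p = 0.0893), and changed by 0.051 ± 0.17 in K562. Its mean level was 14.3 CPM with DMSO and 17.8 with Ro in MOLM13, and 91.1 and 95.5 CPM in K562. Like NQO1, NQO2 was higher in K562 with DMSO, by 2.67 (SE 0.202, edgeR adjusted p = 1.99e-07). EPHX1, the microsomal epoxide hydrolase, had a change of 0.22 ± 0.43 in MOLM13, whereas AKR7A2 (-0.26 ± 0.15) and CYB5R3 (-0.17 ± 0.078) were lower in each MOLM13 pair. In K562 the quinone reductase CRYZ (0.28 ± 0.13) was higher in all 4 pairs, AKR1E2 changed by 0.27 ± 0.38, and AKR7A2 (-0.17 ± 0.23) and AKR1D1 (-0.13 ± 0.58) were at the lower end. AKR1B10, the closest relative of AKR1B1 in the list, was below the count filter, at 0.252 CPM in MOLM13 and 0.282 in K562 with DMSO. OSGIN2, the relative of OSGIN1, changed by -0.10 ± 0.11 in MOLM13 and 0.085 ± 0.19 in K562.

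Further NRF2 targets, in a list apart from those above, held 8 of the 9 calls that the blocked MOLM13 fit made among the other listed genes. These lists were drawn up with earlier results of these data known. Of 27 tested in MOLM13, 12 were higher in all 4 pairs and 1 was lower (10.2% and 14.9% of all genes), and the median change was 0.17. Of 28 tested in K562, 5 were higher in all 4 pairs and 1 was lower (6.84% and 4.65% of all genes), and the median was 0.13. SRXN1, sulfiredoxin, changed by 0.96 ± 0.16 in MOLM13 (edgeR adjusted p = 3.14e-07) and by 0.84 ± 0.36 in K562. GCLM, a subunit of the first enzyme of glutathione synthesis, changed by 0.81 ± 0.28 in MOLM13 (edgeR adjusted p = 2.02e-05) and by 0.75 ± 0.21 in K562. In K562 both were higher in all 4 pairs, as NQO1 and ME1 were, but neither passed the test.

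HMOX1, heme oxygenase, rose from a mean of 32.0 to 198.2 CPM in MOLM13, by 2.57 ± 1.65 (edgeR adjusted p = 2.92e-05), and was at 1.62 CPM with DMSO and 1.51 with Ro in K562. With DMSO it was lower in K562 (log2 fold change -4.30, SE 0.839, edgeR adjusted p = 0.000972), opposite to NQO1 and OSGIN1. The cystine transporter gene SLC7A11 rose by 0.95 ± 0.69 in MOLM13 (edgeR adjusted p = 0.00226), and the autophagy receptor gene SQSTM1 by 0.45 ± 0.28 (edgeR adjusted p = 0.00825). The others called were SLC48A1, a heme transporter (0.66 ± 0.50, edgeR adjusted p = 0.0204), TRIM16L (0.54 ± 0.40, edgeR adjusted p = 0.0232) and MAFG, a small MAF partner of NRF2 (0.28 ± 0.21, edgeR adjusted p = 0.0491). In K562, SLC7A11 and MAFG had mean changes of 0.93 ± 0.76 and 0.93 ± 0.72 and were higher in all 4 pairs. TXNRD1, thioredoxin reductase, changed by 0.12 ± 0.078 in MOLM13 and 0.16 ± 0.19 in K562. At the lower end were TXN (-0.17 ± 0.30) and FECH (-0.12 ± 0.062) in MOLM13 and CD36 (-0.49 ± 0.42) and ABCC3 (-0.36 ± 1.67) in K562.

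**Figure D4:**
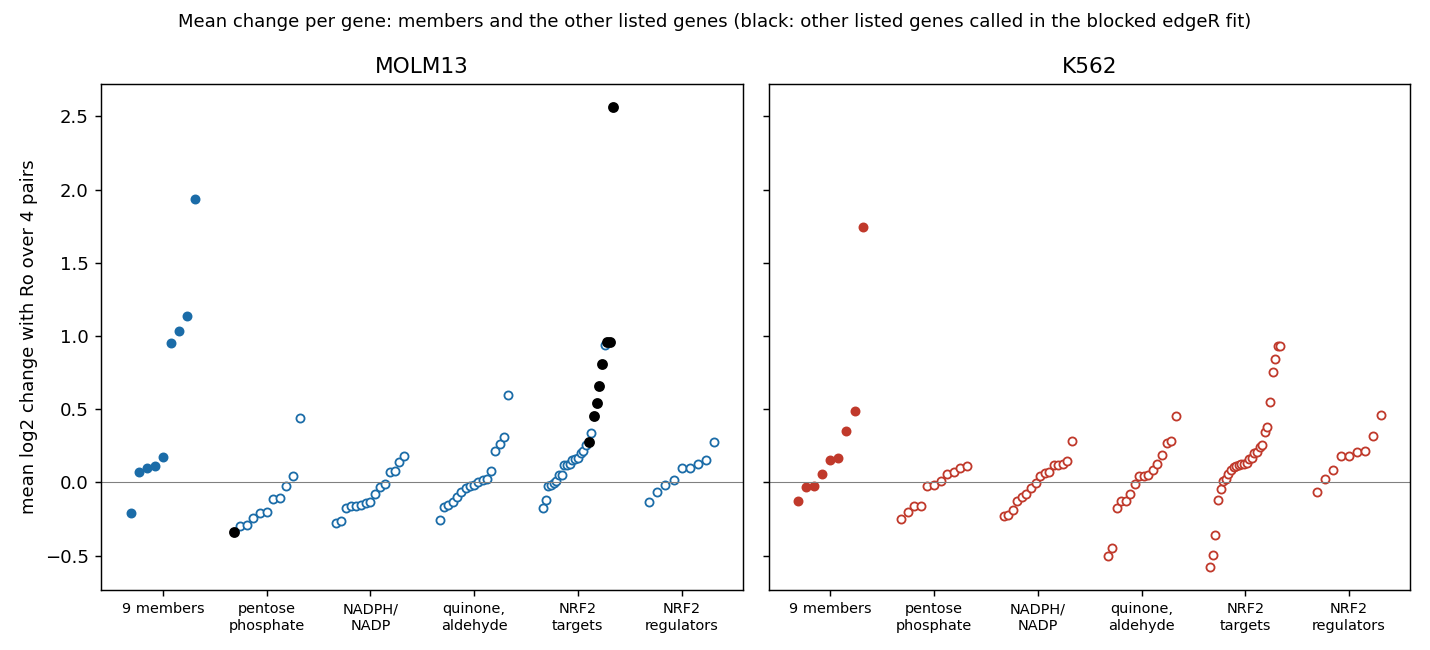
Mean log2 change with Ro over 4 pairs for the 9 genes (filled) and for the other listed genes that could be tested (open), by list, in MOLM13 and K562, with black points for other listed genes called by the blocked edgeR fit. The called genes are PRPS1 (-0.34) and 8 other NRF2 targets in MOLM13, up to HMOX1 at 2.57, and none in K562.

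The transcripts of the NRF2 regulators, 9 tested in each line, did not pass the test. Their median change was 0.098 in MOLM13 and 0.18 in K562. NFE2L2 itself was at a mean of 59.7 CPM with DMSO and 64.1 with Ro in MOLM13 (0.098 ± 0.16, higher in 3 of 4 pairs), and at 54.8 and 69.5 CPM in K562 (0.46 ± 0.68, higher in 4 of 4). KEAP1 changed by 0.098 ± 0.085 and 0.21 ± 0.28, MAFF by 0.28 ± 0.52 and 0.18 ± 0.52, and BTRC by 0.15 ± 0.12 and -0.064 ± 0.18, in MOLM13 and K562. CUL3 changed by -0.020 ± 0.076 and 0.024 ± 0.23, and RBX1 by -0.14 ± 0.096 and 0.084 ± 0.28. NRF2 is controlled mainly at the level of its protein, which these libraries do not measure.

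With DMSO, 42 of the 80 other listed genes tested differed between the lines (52.5%, beside 41.3% of all genes). Of these, 25 were higher in K562 and 17 lower. Among the other NRF2 targets, 12 of 28 were higher in K562 and 4 lower, and among the other quinone and carbonyl reductases, 7 of 17 were higher and 3 lower. For the other pentose phosphate genes it was 3 and 3 of 11, for the other NADPH and NADP enzymes 3 and 6 of 15, and for the regulators 0 and 1 of 9.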

How the data were processed

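RNA from 16 libraries was counted at 3′ ends (QuantSeq FWD kit, ERCC spike-ins added). The authors ran an in-house pipeline and deposited whole, unnormalized counts of reads per gene for 25221 Entrez genes, 1425 of them without a symbol. The submitters' processing notes name Trim Galore, STAR 2.5.3a, SAMtools 1.5 and hg38, with no role. The counting program, annotation and strand setting are not given in the sources used here. The 97 further listed genes were matched by Entrez identifier in RefSeq, because some symbols of the table cover 2 genes.

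Groups and pair numbers came from the labels. Tests used edgeR 4.0.16 under R 4.3.3 (TMM, quasi-likelihood test, Benjamini-Hochberg adjustment over all genes) and kept a gene where 4 or more of the 8 libraries had 10 or more counts. Fits on fewer than 8 libraries asked for 10 or more counts in fewer of them. No test is stated for these data in the methods, so the main fit had no block. That fit leaves out the pairing in the labels, so the blocked fit of Ro against DMSO is given beside it. CPM used TMM over 16 libraries, and log2 changes a prior count of 2. Across genes, libraries with the same number deviated from the mean of their group with a correlation of 0.385 to 0.831 in MOLM13 and 0.109 to 0.416 in K562, so numbers pair libraries within a line, but of -0.146 to 0.056 between lines. Libraries of a group differed by more than sampling noise (chi-square per degree of freedom at least 10.1).

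Alternatives were the replicate block, DESeq2 1.42.0, its size factors, total-count scaling, no filter, a minimum of 50 counts, prior counts of 0.5 and 10, and leaving out each library or pair. The description over K562 pairs 1 and 3 was added after seeing the data. Figures and tables used Python 3.11.15 with pandas 2.3.3. The members and lists were chosen with earlier results of these data known. Named genes were the 9 members, 10 set relatives, listed genes called in a blocked fit, the 2 highest and 2 lowest changes per list and line (mean of at least 5 CPM), and the 3 genes most alike in change. MAFF, CBR1, CBR3, AKR1C1 and AKR1C3 were named after their values were seen. Values of 1 further listed gene are not reported here.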

Additional observations from a re-analysis of the deposited data

Results flagged for a closer look

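Within each group of 4 libraries or pairs, the gap of the highest or lowest value to its neighbour was compared with the whole range for the 9 genes, and 2 of the 54 groups checked had a gap past Dixon's 95% critical value. Chance alone gives about 1 such group in 20. IDH1 in MOLM13 with Ro was at 61.5 CPM in pair 4, against 27.2, 29.4 and 31.8 CPM in the others, a gap of 0.867 of the range. The DMSO library of that pair also had the highest IDH1 level of its group, at 51.0 CPM. The log2 change of AKR1B1 in K562 was 1.10 in pair 2, against -0.241, -0.189 and -0.067 in the others, a gap of 0.870 of the range. The DMSO library of that pair is the smallest of the 16 and holds 5 AKR1B1 reads. What sets either value apart was not tested.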

How the results depend on the processing

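The number of genes called between Ro and DMSO depended on the pairing. In MOLM13 the count was 0 without and 317 with the replicate block, 1 in DESeq2 and 260 in DESeq2 with the block. In K562 it was 0 with or without the block, 2 in DESeq2 with the block and 368 over pairs 1 and 3 with the block. The fit over pairs 1 and 3 has 2 libraries per treatment and a looser filter, so its counts cannot be set beside the others. Of the other listed genes, 9 and 6 were called in MOLM13 with the block (edgeR and DESeq2), and 1 (DESeq2 with the block) and 7 (pairs 1 and 3 with the block) in K562. The number of members higher in every K562 pair was 6 over pairs 1 and 3. That condition covers fewer pairs and is easier to meet, so this number cannot be set beside the count over all pairs. The share of all genes higher in pairs 1 and 3 was not computed. All 90 alternative values of the MOLM13 changes kept their direction and stayed within 1 SD. In K562, 90 did and 9 turned sign, all for PGD, IDH1, TALDO1, TKT or AKR1B1. Over pairs 1 and 3, PGD was 0.093, IDH1 0.116 and AKR1B1 -0.128. With total-count scaling TALDO1 was -0.005. Leaving out 1 pair at a time gave -0.069 to 0.036 for PGD, -0.027 to 0.127 for TALDO1, -0.244 to 0.188 for TKT and -0.166 to 0.281 for AKR1B1. The cause was not tested.

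Between the lines with DMSO, 119 alternative values kept direction and call, 5 lost the call of ME1, and the TKT difference became 0.173 with total-count scaling. That scaling moved the median of all genes from -0.037 to 0.357 and the share of calls that were higher in K562 from 49.1% to 71.2%, while 6 members stayed called higher and 1 lower. Depth limits OSGIN1 in MOLM13 (4 to 19 reads with DMSO) and AKR1B1 in K562 (5 to 78 reads with DMSO).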

Other observations

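Genes whose change with Ro over the 8 pairs was most like the mean of the 9 members, among 7362 genes with a mean of at least 10 CPM in each line, were FBXO34 (Pearson r = 0.951), CREM (0.926) and SAMD4A (0.916). These are descriptions over 8 pairs that share a line and a library pair by pair, with no test. They were picked as the highest of 7362 correlations, and the height that such a pick reaches by chance was not computed. The changes of FBXO34 were 0.28, -0.02, 0.14 and 0.09 in MOLM13 pairs 1 to 4 and -0.13, 0.03, 0.00 and -0.12 in K562, far smaller than those of the members it resembles in shape. CREM, a cAMP-responsive transcription factor, changed by 0.66, -0.05, 0.14 and 0.26 in MOLM13 and by -0.20, 0.06, 0.10 and 0.03 in K562. The genes most like OSGIN1 were ARID3B (0.894), RAB2B (0.878) and ANO10 (0.865). Of the members, NQO1 had the highest correlation with the members' mean, of which it is a part (0.914), and AKR1B1 the lowest (-0.030).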
